A study of Mus musculus with 49 samples.

Results

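Retinoid handling was followed through 9 genes, Stra6, Rbp2, Rbp4, Rdh7, Adh1, Aldh1a1, Aldh1a3, Dhrs3 and Rarb, chosen by name from the 46078 gene identifiers of a mouse RNA-seq series. The 49 libraries fell into 16 conditions of C57BL/6J, wild-type (WT) cells. Hepatocytes from livers of 10-week-old male mice were sequenced freshly isolated (FH, 3 libraries) or after monolayer culture for 3 h, 1 day, 2 days, 4 days, 1 week or 2 weeks (3 libraries each) in a standard medium with EGF at 20 ng/mL. Hepatocytes cultured for 1 week with 0.3 µM verteporfin, a YAP inhibitor, were set against a DMSO control (2 libraries each). Cultured hepatocytes that had dedifferentiated into expandable cells, named dediHeps, were sequenced from monolayers (5 libraries), from aggregates kept in ultra-low attachment wells (3 libraries) and from spherical organoids (dediHep-SOs, 3 libraries) grown in Matrigel with EGF, Noggin, R-spondin1, Wnt3a and CHIR99021. Budding organoids from dediHeps (dediHep-BOs, 3 libraries) carried a Cdx2 retrovirus and were finally grown with EGF, Noggin and R-spondin1 alone. Spherical organoids from intestinal progenitors of E13.5 embryos (FIPC-SOs, 3 libraries) and budding organoids from small-intestinal crypts of 10-week-old mice (ISC-BOs, 4 libraries) served as intestinal references. By the paper, the medium with Wnt3a and CHIR99021 also makes fetal progenitors form SOs, and crypts were grown without them. Chemically induced liver progenitors (CLiPs, 3 libraries), made from hepatocytes in serum-free medium with Y-27632, A-83-01 and CHIR99021, completed the set.

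Retinol, or vitamin A, reaches tissues from the liver bound to the plasma carrier Rbp4, and the membrane receptor Stra6 takes it into cells. Inside cells, carriers of the Rbp family hand it either to Lrat, which esterifies it for storage, or to alcohol and short-chain dehydrogenases such as Adh1 and Rdh7, which oxidize it to retinal. Aldehyde dehydrogenases of the Aldh1a family oxidize retinal to retinoic acid, Dhrs3 reduces retinal back to retinol, and retinoic acid acts through nuclear receptors such as Rarb. In the liver, hepatocytes secrete Rbp4 and stellate cells hold most retinyl ester, while Rbp2 is the retinol carrier of absorptive enterocytes.

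Sequence upstream of the transcription starts was read from RefSeq (GRCm38.p6) for the 8 genes with an entry, as windows of 250 bases ending at the start. The search covered direct repeats of the retinoic acid receptor half-site with spacers of 1, 2 or 5 bases (DR1, DR2 and DR5) and the Cdx letters TTTATG and TTTATT, on both strands. A DR5 was found for 1 gene only, Rarb, 53 bases before its start, whereas 0.0883% of all 32851 windows held a DR5, 0.174% a DR2 and 0.164% a DR1. The letters TTTATG and TTTATT are common, being present in 10.8% and 18.1% of all windows. At least 1 of them was found for Adh1 and in some but not all windows of Rbp4 and Dhrs3. The same held for 1 of the 4 windows of Stra6 and 1 of the 2 windows of Rdh7, where 3 matches overlap on the reverse strand. None was found for Rbp2, Aldh1a1 or Rarb. The windows below are shown because Rarb carries the DR5 and because Rdh7 and Adh1 were called higher in aggregates and in both comparisons of budding with spherical organoids. They run 5′ to 3′ on the strand of the gene, with matches in capitals, for Rarb at chr14:16575477-16575726 (minus strand), Rdh7 at chr10:127889248-127889497 (minus strand) and Adh1 at chr3:138277335-138277584 (plus strand).
Rarb: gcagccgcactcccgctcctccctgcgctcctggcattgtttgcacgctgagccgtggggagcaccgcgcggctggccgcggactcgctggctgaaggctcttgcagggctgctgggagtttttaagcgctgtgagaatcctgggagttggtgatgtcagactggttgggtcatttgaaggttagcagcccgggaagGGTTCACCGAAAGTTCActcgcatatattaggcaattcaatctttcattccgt
Rdh7: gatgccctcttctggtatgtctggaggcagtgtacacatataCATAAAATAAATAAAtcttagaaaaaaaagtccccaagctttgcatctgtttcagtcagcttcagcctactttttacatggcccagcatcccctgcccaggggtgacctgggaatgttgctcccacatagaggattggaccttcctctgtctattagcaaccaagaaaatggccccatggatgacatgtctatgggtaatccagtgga
Adh1: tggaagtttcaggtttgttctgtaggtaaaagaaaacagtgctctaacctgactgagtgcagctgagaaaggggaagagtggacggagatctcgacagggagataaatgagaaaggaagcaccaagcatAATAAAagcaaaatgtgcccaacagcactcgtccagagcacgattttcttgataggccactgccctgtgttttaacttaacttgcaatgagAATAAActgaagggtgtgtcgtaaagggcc
A match describes letters only and is not a binding site.

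All 9 genes are annotated as protein-coding on GRCm38. Stra6 lies at chr9:58063788-58153996, Rbp2 at chr9:98486115-98509781, Rbp4 at chr19:38116629-38125281, Adh1 at chr3:138260991-138290698, Aldh1a3 at chr7:66390890-66427517, Dhrs3 at chr4:144892827-144928209 and Rarb at chr14:16430839-16819156. Rdh7 (chr10:127884028-127888817) lies in a row of related dehydrogenase genes, 6.7 kb from Rdh16f2, and Aldh1a1 (chr19:20492715-20643465) lies 49.5 kb from its close copy Aldh1a7. How reads matching several such copies were assigned is not given in the sources used here, so the split between Rdh7 and its relatives and between Aldh1a1 and Aldh1a7 is uncertain. Stra6, Adh1, Aldh1a1 and Rarb also overlap an annotated gene on the opposite strand, and Stra6 and Rbp2 overlap one on the same strand.

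The libraries held 861047 to 3872936 unique molecular identifiers (UMIs), with a median of 1976760. Levels are given as CPM, UMI counts scaled to library size with TMM factors. Those factors were 0.59 to 0.678 in fresh and 3 h hepatocytes and 0.909 to 1.27 elsewhere. The highest count in the table equals the number of tags that UMIs of 6 bases allow, a length inferred from that value and not given in the sources used here. The highest counts of Rbp4 (4033), Adh1 (3770) and Aldh1a1 (3692) came close to that ceiling, and a correction for repeated tags enlarged the folds of Rbp4 and Adh1. For Adh1 at 1 day, for example, the log2 fold change of -3.14 became -4.02. The hepatocyte label of the fresh cells held, with 8 hepatocyte markers summing to 21850 to 26870 CPM per library. These libraries also held 112.6 to 233.6 CPM of 12 stellate cell and fibroblast markers, against 0.503 to 1.68 CPM in dediHeps, where at least 10 of the 12 were at 0. Some libraries stood apart for the genes described here. dediHep-SO replicate 3 held 267 CPM of Adh1 against 0.643 and 0 in replicates 1 and 2, and CLiP replicate 3 held 67.4 CPM of Rdh7 against 1.48 and 1.68. The dediHep libraries differed widely among themselves, and the labels tie some of them to aggregates and SOs of the same culture. In bulk RNA, fewer cells of a type and less RNA per cell cannot be told apart. Within dediHeps, aggregates and dediHep-SOs each library has a culture code of its own. For the other conditions the labels do not say whether replicates came from separate animals or cultures, so p-values there measure only the spread between these libraries, which may be technical.

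**Figure D1:**
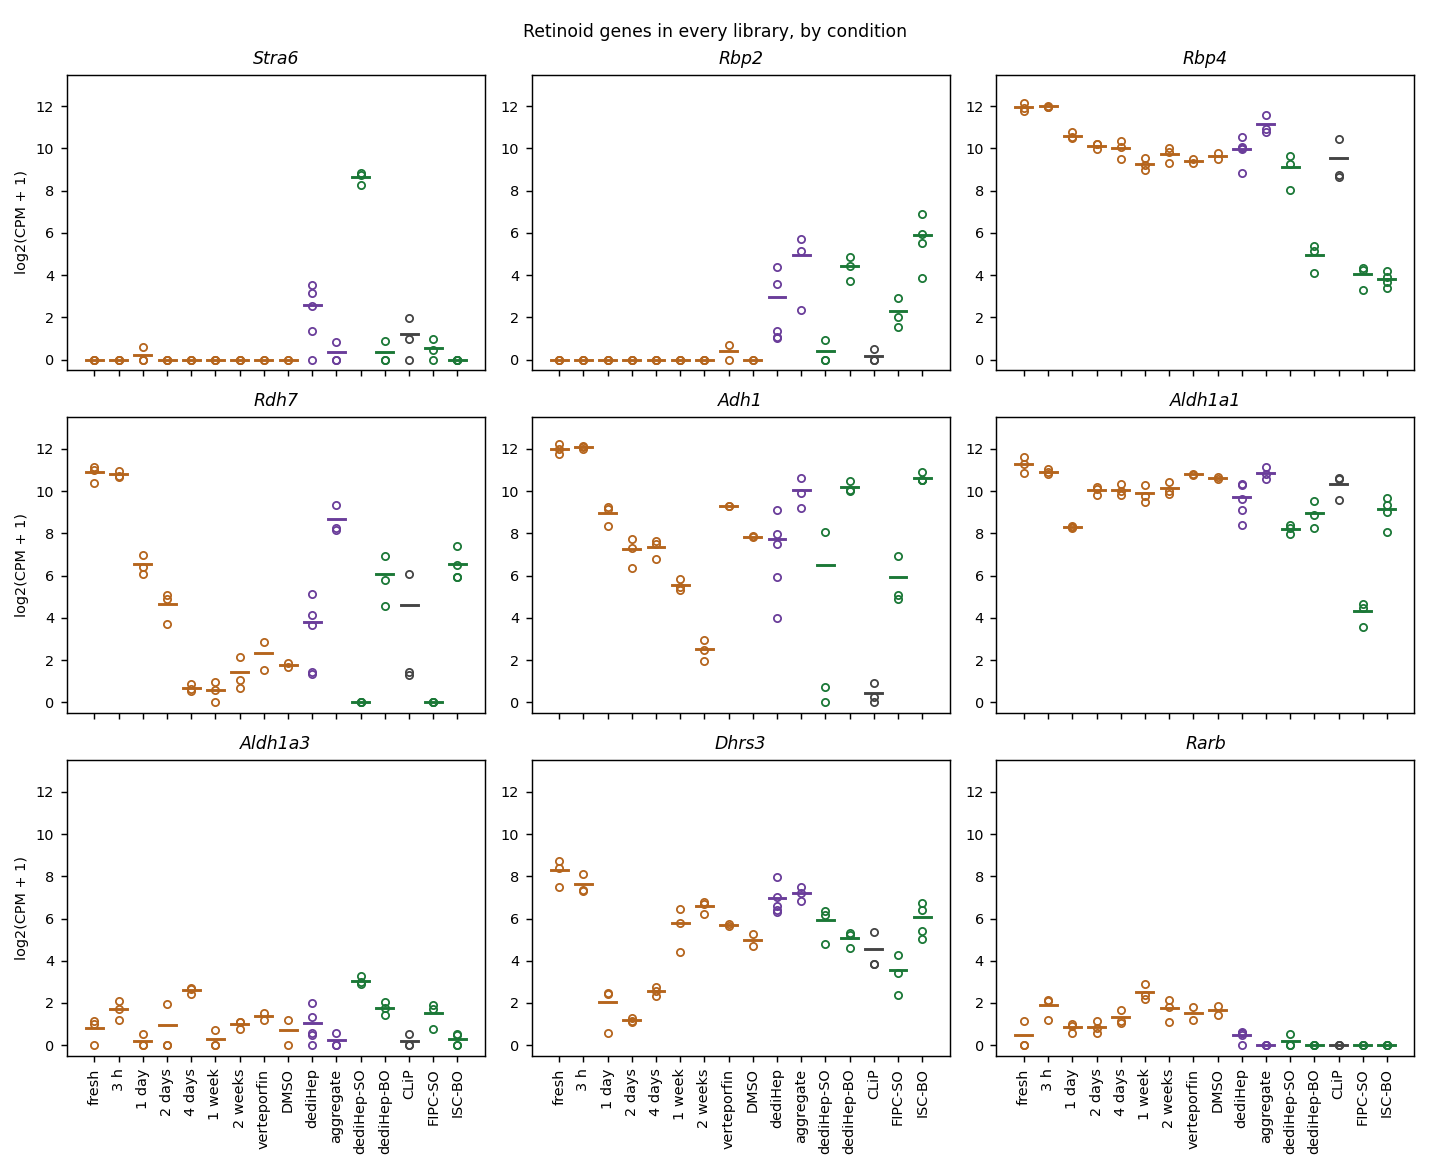
Level of each of the 9 genes in every library, as log2(CPM + 1), by condition. Open circles are libraries and bars are the logarithm of the condition mean plus 1. Stra6 stands at 306.8 to 459 CPM in the 3 dediHep-SO libraries and at no more than 10.6 CPM in any other library.

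A gene was called changed in a comparison when its log2 fold change exceeded 2 in either direction at a Benjamini-Hochberg adjusted p below 0.1 in edgeR's quasi-likelihood test across all genes. In monolayer culture none of the 6 genes tested was called at 3 h, when 6.91% of all genes tested were. An unadjusted p under 0.05 was reached there by 0 of the 6 and by 3494 of all 12443 genes tested. At 1 day 4 of 6 fell, Rdh7, Adh1, Aldh1a1 and Dhrs3, against a background of 17.4% called in either direction. At 2 days 3 of 6 fell (background 21.3%), at 4 days 4 fell and 1 rose (23.8%), at 1 week 4 fell (25.9%) and at 2 weeks 3 fell (29.5%). Stra6, Rbp2 and Rarb did not pass the filter on low counts in the time course. Rdh7 and Adh1 were lower at every time from 1 day on. The 8 hepatocyte markers summed to 6775 to 8056 CPM at 1 day and 1306 to 1526 CPM at 2 weeks, and their part in these changes was not tested.

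**Figure D2:**
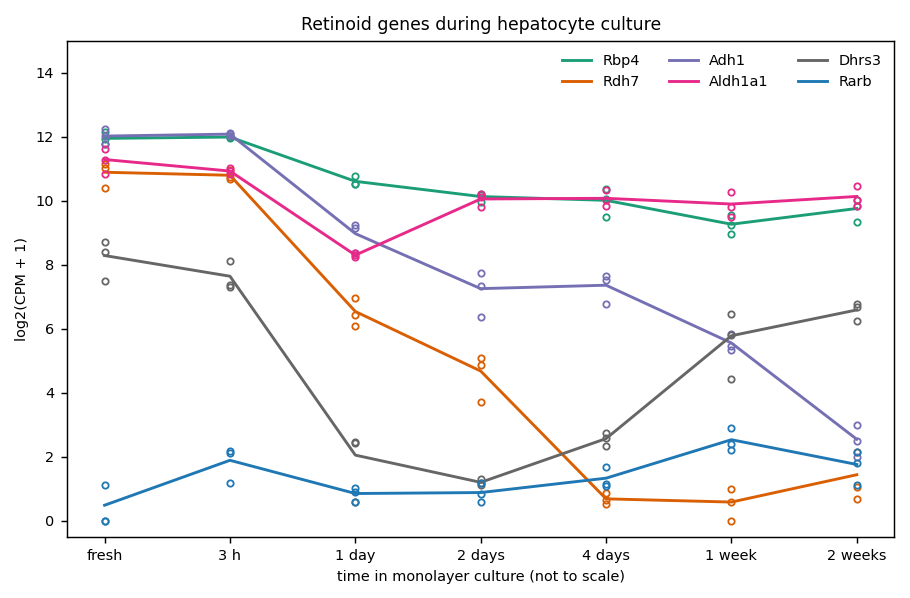
Levels of 6 genes in fresh and cultured hepatocytes, as log2(CPM + 1). Circles are libraries and lines join the logarithm of the mean plus 1; the time axis is not to scale. Dhrs3 drops to 1.29 CPM at 2 days and stands at 95 CPM at 2 weeks, while Rdh7 and Adh1 stay low.

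Stra6, the receptor that carries retinol from Rbp4 into cells, was at 0 in 20 of the 21 libraries of fresh and untreated cultured hepatocytes and had 1 UMI in the other, at 1 day. In dediHeps its level was 10.6, 8.04, 0, 1.58 and 4.74 CPM in replicates 1 to 5. In dediHep-SOs it was 429.3, 459 and 306.8 CPM, a mean of 398.4 ± 80.7 (SD, n = 3). All 3 dediHep-SO libraries thus lay far above every other library of the series. The 6 cholangiocyte markers summed to 3424 to 4302 CPM in dediHep-SOs, 1063 to 1691 in dediHeps, 1207 to 1794 in FIPC-SOs and 1261 to 1696 in dediHep-BOs, with none at 0 in these libraries. The 4 intestinal stem cell markers summed to 560.8 to 698.2 CPM in dediHep-SOs, at most 5.92 in dediHeps and 678.7 to 753.2 in dediHep-BOs, and the 4 Paneth cell markers to 1291 to 1924, 0 and 2058 to 3193 CPM. In FIPC-SOs these sums were 237.5 to 379.4 and 635.3 to 1268 CPM. Of the 4 Paneth cell markers, 1 to 3 were at 0 in the dediHep-SO libraries, and 3 were called lower there than in FIPC-SOs. The part of these cell types in the Stra6 level was not tested. Against dediHeps the log2 fold change was 6.37 ± 0.791 (SE, adjusted p = 0.000509). Against FIPC-SOs, which held 0.39, 0 and 0.963 CPM, it was 9.56 ± 0.573 (adjusted p = 2.92e-05). The fetal intestinal organoids grown as the same form therefore did not share the high Stra6 level. In dediHep-BOs it was 0, 0 and 0.835 CPM, from 2 UMIs against 2924 in dediHep-SOs, a 1350-fold lower level (95% counting interval 373 to 11100). ISC-BOs held no Stra6 UMI in any of the 4 libraries. In aggregates, 1 UMI was counted, a 23-fold lower level than in dediHeps (95% counting interval 3.94 to 926, adjusted p = 0.0903). That call was lost without any 1 of the aggregate libraries, with log2 fold changes of -6.50, -3.65 and -3.75 and adjusted p = 0.156, 0.248 and 0.256 without replicates 1, 2 and 3. With the culture code as a block it was -4.69 (adjusted p = 0.0135).

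Stra6l, the Stra6-like gene whose product also takes up retinol from Rbp4, had a different distribution. It stood at 290.2 ± 70.8 CPM (SD, n = 3) in fresh hepatocytes, at 2.41 ± 2.57 in dediHeps (n = 5) and at 3.81 ± 1.51 in dediHep-SOs (n = 3). In dediHep-BOs it rose to 68.3 ± 16.2 CPM (n = 3, log2 fold change 4.20, adjusted p = 8.26e-05). The change from SO to BO was larger in dediHep-derived than in intestine-derived organoids (interaction 4.22 ± 0.486, SE, adjusted p = 0.000115). Stra6l was thus higher in the form of dediHep-derived organoid in which Stra6 was lower. Form cannot be told apart here from the Cdx2 retrovirus, the medium and the donor age, which changed with it.

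Rbp4, the plasma carrier of retinol secreted by hepatocytes, was 3461, 4513 and 3872 CPM in fresh hepatocytes and 4185, 4044 and 3964 CPM after 3 h. It then declined, with 1459, 1467 and 1742 CPM at 1 day and 747.1, 597 and 496.3 CPM at 1 week. All culture libraries from 1 day on lay below all fresh ones. The log2 fold change was -1.44 at 1 day and -1.90 at 2 days, short of the fold required, -2.01 at 4 days, -2.75 ± 0.269 (SE, adjusted p = 2.23e-08) at 1 week and -2.21 ± 0.263 (adjusted p = 4.23e-07) at 2 weeks. The call at 4 days sat at the threshold, with -1.89 without FH replicate 2 and -1.80 without 4-day replicate 2. With counts corrected for repeated UMIs the fall at 2 days was -2.29 and would be called.

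In dediHeps Rbp4 was 460.3, 1509, 995.8, 1080 and 1047 CPM, below every fresh library (log2 fold change -2.08 ± 0.349, SE, adjusted p = 0.000726). Without FH replicate 2 or dediHep replicate 1 the change was -1.97 and -1.90, under the fold required. Aggregates held 3104, 1752 and 1935 CPM, above all dediHep libraries, by a log2 fold change of 1.16 ± 0.345 (adjusted p = 0.0469), or 2.15 (adjusted p = 0.0116) with the UMI correction, which would be called. dediHep-SOs kept 613.4, 786 and 259.1 CPM although Alb, the hepatocyte albumin gene, had no UMI in them. FIPC-SOs held 17.9, 8.76 and 19.6 CPM, and the 2 kinds of SO differed by 5.12 ± 0.505 on the log2 scale (adjusted p = 0.000223). In dediHep-BOs the level was 34.5, 16.3 and 40.1 CPM, a change of -4.15 ± 0.482 from dediHep-SOs (adjusted p = 0.000274). ISC-BOs held 14.1, 11.7, 17.4 and 9.61 CPM, and the BOs overlapped in range. The difference between them, 1.23 ± 0.356 (adjusted p = 0.0709), was short of the fold required. Against fresh hepatocytes the log2 fold change of ISC-BOs was -8.27 (adjusted p = 5.45e-09).

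Rbp2, the retinol carrier of absorptive enterocytes, had no UMI in any fresh hepatocyte library nor in any untreated culture up to 2 weeks. It was present in all 5 dediHep libraries, at 1.12, 1.01, 19.6, 1.58 and 10.9 CPM. Over the groups, 96 UMIs against 0 put it at least 6.95-fold higher than in fresh hepatocytes, taking 3 UMIs over the FH libraries as the limit. Aggregates held 51.7, 34.8 and 4.07 CPM. Compared with the dediHeps the log2 fold change was 2.06 ± 0.966 (adjusted p = 0.162) and ranges overlapped. With the culture code of the labels as a block it was 4.08 (adjusted p = 0.00881) and called, and without dediHep replicate 3 it was 3.02 (adjusted p = 0.0629). dediHep-SOs held 0, 0 and 0.926 CPM, from 2 UMIs. In dediHep-BOs it was 20.9, 12.4 and 28.4 CPM, 75.3-fold higher than in dediHep-SOs (95% counting interval 20.5 to 628, adjusted p = 0.00055). ISC-BOs, at 44.4, 117.1, 13.6 and 59.9 CPM, were at least 50.7-fold higher than fresh hepatocytes. They were also higher than FIPC-SOs, which held 3.12, 6.66 and 1.93 CPM (log2 fold change 3.86 ± 0.72, adjusted p = 0.00434). Thus Rbp2 was low in both kinds of SO and higher in both kinds of BO, and the change from SO to BO did not differ detectably between them (interaction 2.11 ± 1.37, adjusted p = 0.31). The 8 enterocyte markers summed to 1693 to 2631 CPM in dediHep-BOs, 2002 to 2963 in ISC-BOs, 273.9 to 335.9 in dediHep-SOs and 620.4 to 1008 in aggregates. The same markers summed to 227.7 to 303.7 CPM in fresh, 448 to 801.1 in 1-day and 8.8 to 33.3 in 2-week hepatocytes, all without an Rbp2 UMI. Their part in the Rbp2 differences was not tested.

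Of the 8 genes of a list for retinyl ester storage and release, 1 to 4 were tested in each comparison. Lrat, the enzyme that esterifies retinol, was 8.84 ± 5.05 CPM (SD, n = 3) in fresh hepatocytes from 23 UMIs in all, and it had no UMI in dediHeps, aggregates or dediHep-SOs. The stellate cell marker Reln was 12.2 ± 2.73 CPM (n = 3) in fresh hepatocytes and had 1 UMI over the dediHep libraries, and the part of stellate cells in the Lrat level was not tested. In dediHep-BOs Lrat stood at 3.17 ± 0.95 CPM (n = 3, 21 UMIs) and in ISC-BOs at 5.20 ± 2.71 CPM (n = 4), where Reln had no UMI. In 2 of the 3 dediHep-BO libraries and in 1 FIPC-SO library the collagen gene Col1a1 was high, averaging 41.4 ± 36.1 and 64.8 ± 107.1 CPM (SD, n = 3 each). Lrat, Reln and Col1a1 were named after their values were seen. Lrat passed the filter on low counts in 1 comparison, of ISC-BOs with fresh hepatocytes, with a log2 fold change of -0.84 (adjusted p = 0.258).

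Lpl, the lipoprotein lipase, which also hydrolyses retinyl esters, was on the same list and differed between the forms of dediHep culture. It stood at 119.9 ± 62 CPM (SD, n = 5) in dediHeps, 912.9 ± 233.9 in aggregates (n = 3) and 1.30 ± 1.05 in dediHep-SOs (n = 3, 9 UMIs). Aggregates were higher than dediHeps (log2 fold change 2.94, adjusted p = 0.00146) and than fresh hepatocytes (4.20, adjusted p = 5.07e-05), and dediHep-SOs were lower than dediHeps (-6.52, adjusted p = 0.000228). Dgat1, an acyltransferase that can also esterify retinol, was higher in ISC-BOs than in FIPC-SOs (2.24, adjusted p = 0.000841).

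Rdh7, a short-chain dehydrogenase that oxidizes retinol and other hydroxy compounds, was 2262, 2067 and 1356 CPM in fresh hepatocytes. It fell to 124.5, 84.7 and 66.2 CPM at 1 day, 33.1, 28.3 and 12.2 CPM at 2 days, and 0.814, 0.439 and 0.549 CPM at 4 days. The groups did not overlap at any of these times. The log2 fold change from fresh cells was -4.46 ± 0.428 (SE, adjusted p = 6.78e-08) at 1 day and -11.52 ± 0.636 (adjusted p = 1.26e-11) at 4 days. Only 4 UMIs were counted at 1 week and 7 at 2 weeks over 3 libraries each. dediHeps held 1.68, 16.6, 11.8, 1.58 and 34.1 CPM (log2 fold change from fresh cells -7.30 ± 0.859, adjusted p = 6.22e-05).

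Aggregates held 654.3, 310.1 and 285.6 CPM of Rdh7. The dediHeps of the same 3 cultures held 1.68, 16.6 and 1.58 CPM, so that each aggregate lay above its own monolayer. The rise was 4.99 ± 0.797 (SE) on the log2 scale (adjusted p = 0.00351), or 6.37 with the culture as a block. Against fresh hepatocytes the log2 fold change was -2.29 ± 0.423 (adjusted p = 0.00241). Rdh7 had no UMI in dediHep-SOs, at least 31.3-fold lower than in dediHeps (adjusted p = 0.0243), and none in FIPC-SOs. In dediHep-BOs it was 119.8, 55.1 and 23 CPM, at least 154-fold higher than in dediHep-SOs (adjusted p = 0.000672). In ISC-BOs it was 90.9, 60.6, 60.2 and 166.5 CPM, at least 268-fold higher than in FIPC-SOs (adjusted p = 0.000114). The 2 kinds of BO overlapped (log2 fold change -0.49 ± 0.52, adjusted p = 0.594). The interaction for Rdh7 has no usable estimate because both SO groups were at 0 (fitted value -0.52 ± 1530, SE).

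Adh1, the main alcohol dehydrogenase of the liver and also an oxidase of retinol, was 4142, 4819 and 3492 CPM in fresh hepatocytes. It fell to 564.2, 607.5 and 330.2 CPM at 1 day, to 56, 38.9 and 42.7 CPM at 1 week and to 4.64, 2.93 and 6.88 CPM at 2 weeks. The groups did not overlap at any of these times. At 2 weeks the log2 fold change was -9.84 ± 0.504 (SE, adjusted p = 9.73e-13). The decline of Adh1 was slower than that of Rdh7, which had reached the level of single UMIs by 4 days, but the difference between the genes was not tested. dediHeps spread from 15.1 to 548.8 CPM with a median of 178 (log2 fold change from fresh cells -4.44 ± 0.822, adjusted p = 0.00142). All 5 were above the 2-week cultures.

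In aggregates Adh1 was 1599, 588.6 and 980.7 CPM, all above the dediHeps (log2 fold change 2.33 ± 0.805, SE, adjusted p = 0.0748). With the culture as a block the rise was 3.97 (adjusted p = 0.00953). Without the block it was lost on leaving out dediHep replicate 2 (2.09, adjusted p = 0.131) or aggregate replicate 1 (1.90, 0.222), 2 (2.65, 0.104) or 3 (2.41, 0.159). Aggregates remained below fresh hepatocytes (log2 fold change -2.08 ± 0.395, adjusted p = 0.00286). Leaving out aggregate replicate 2 gave -1.72, without aggregate replicate 3 it was -1.96 and without FH replicate 2 it was -1.97, all short of the fold required.

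In organoids Adh1 turned on 1 library. dediHep-SOs held 0.643, 0 and 267 CPM, and dediHep-BOs held 1419, 1027 and 1080 CPM, above all of them. The log2 fold change was 3.75 ± 1.5 (SE, adjusted p = 0.0858, or 0.22 in DESeq2), and without dediHep-SO replicate 3 it was 11.46 (adjusted p = 4.81e-08). It was not called without dediHep-BO replicate 1 (3.59, adjusted p = 0.182), 2 (3.86, 0.154) or 3 (3.82, 0.131), or without dediHep-SO replicate 1 (3.17, 0.139) or 2 (3.18, 0.154). Against dediHeps the SOs did not differ detectably with replicate 3 (-1.25, adjusted p = 0.654) and were called lower without it (-8.92, adjusted p = 0.0155). Against FIPC-SOs the values were 0.50 (adjusted p = 0.856) with it and -7.20 (adjusted p = 0.000507) without it, again called lower. ISC-BOs held 1948, 1491, 1481 and 1485 CPM and FIPC-SOs 32.7, 121.9 and 28.9 CPM, a log2 fold change of 4.66 ± 0.517 (adjusted p = 0.000179). The interaction was -0.94 (adjusted p = 0.715) with dediHep-SO replicate 3 and 6.72 (adjusted p = 0.000556) without it. dediHep-BOs and ISC-BOs differed by -0.41 ± 0.167 (adjusted p = 0.172).

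Aldh1a1, which oxidizes retinal to retinoic acid, was 1841, 3165 and 2485 CPM in fresh hepatocytes and passed through a minimum at 1 day, with 314, 301.5 and 325.7 CPM. That fall (log2 fold change -3.09 ± 0.289, SE, adjusted p = 4.8e-08) was the only call of Aldh1a1 in the time course. At 2 days the level was 1181, 1103 and 899.6 CPM, above all 1-day libraries, and at 2 weeks 919.4, 1038 and 1406 CPM (log2 fold change from fresh cells -1.17 ± 0.271, adjusted p = 0.00119). Aldh1a7, its close copy, was called lower at 2 weeks, at 10.1 ± 5.98 CPM (SD, n = 3) at 2 weeks from 1326 ± 396.4 in fresh cells (log2 fold change -7.13, adjusted p = 3.46e-10). A direct test of the difference between 1 and 2 days was not made.

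dediHeps held 337.6 to 1279 CPM of Aldh1a1 with a median of 787.1, and aggregates held 2251, 1506 and 1798 CPM, above all of them (log2 fold change 1.15 ± 0.396, SE, adjusted p = 0.0752). dediHep-SOs held 306.5, 254.1 and 334.6 CPM. FIPC-SOs held 24.5, 21 and 10.9 CPM, the lowest of the 16 conditions, and lay 3.95 ± 0.368 below dediHep-SOs on the log2 scale (dediHep-SO minus FIPC-SO 3.95, adjusted p = 0.000177). ISC-BOs, at 520.3, 656.4, 266.5 and 821.6 CPM, were 4.88 ± 0.46 higher than FIPC-SOs (adjusted p = 7.32e-05). dediHep-BOs, at 733.6, 461.3 and 306.2 CPM, differed from dediHep-SOs by only 0.78 ± 0.314 (adjusted p = 0.0869). The difference between these 2 steps was itself called (interaction -4.13 ± 0.571, adjusted p = 0.000527). ISC-BOs were lower than fresh hepatocytes by a log2 fold change of -2.20 (adjusted p = 0.000288). That value was -1.98 without FH replicate 2 and -1.92 without ISC-BO replicate 3, under the fold required.

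Aldh1a3, a second retinal oxidase, was scarce, with at most 27 UMIs in a library. Its highest conditions were dediHep-SOs at 8.68, 6.45 and 6.94 CPM and 4-day hepatocytes at 5.29, 4.39 and 5.49 CPM, and neither overlapped with the next condition in order. At 4 days, 33 UMIs stood against 2 in fresh hepatocytes, a 6.41-fold higher level (95% counting interval 1.64 to 55.1, adjusted p = 0.0775). This call was lost without FH replicate 1, 2 or 3 (adjusted p = 0.118, 0.209 and 0.141) and without 4-day replicate 2 or 3 (adjusted p = 0.105 and 0.129). Against dediHeps, at 0, 1.51, 3.02, 0.395 and 0.474 CPM, the rise in dediHep-SOs was 2.59 ± 0.723 (SE) on the log2 scale (adjusted p = 0.0433). It was lost without dediHep-SO replicate 1 (adjusted p = 0.184) or 2 (adjusted p = 0.133), and with the culture code as a block it was 2.34 (adjusted p = 0.241) and not called.

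Dhrs3, which reduces retinal to retinol and is induced by retinoic acid in many cells, was 178.2, 335.1 and 419.3 CPM in fresh hepatocytes. It was 4.34, 4.54 and 0.509 CPM at 1 day, 1.24, 1.17 and 1.46 CPM at 2 days, and 4.07, 5.70 and 4.94 CPM at 4 days. From 1 week the values were higher again, at 86.6, 20.5 and 54.5 CPM, and at 2 weeks they were 108.9, 73.9 and 102.1 CPM. The 1-day to 4-day libraries lay below all libraries of the other times. The log2 fold change from fresh cells was -6.68 ± 0.596 (SE, adjusted p = 2.43e-08) at 1 day, -7.93 ± 0.649 (adjusted p = 3.66e-09) at 2 days, -2.59 (adjusted p = 1e-04) at 1 week and -1.73 ± 0.454 (adjusted p = 0.00329) at 2 weeks. The last is short of the fold required, and it was -2.02 without FH replicate 1. dediHeps ranged from 77.1 to 247.2 CPM with a median of 94, and aggregates held 145.4, 112.9 and 181.3 CPM (log2 fold change 0.23 ± 0.398, adjusted p = 0.716).

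dediHep-SOs held 80.7, 70.5 and 26.8 CPM of Dhrs3 and FIPC-SOs 18.3, 4.21 and 9.63 CPM (log2 fold change 2.44 ± 0.564, SE, adjusted p = 0.0169). dediHep-BOs held 38.3, 36.2 and 23 CPM, and ISC-BOs 83.8, 106.2, 41.5 and 31.9 CPM. From SO to BO the dediHep-derived organoids changed by -0.84 ± 0.416 (adjusted p = 0.151) and the intestine-derived ones by 2.60 ± 0.55 (adjusted p = 0.00926). These steps differed (interaction -3.45 ± 0.753, adjusted p = 0.0107). Donor age and medium changed with form in the intestine-derived step, and Cdx2 and medium in the dediHep-derived one, so these cannot be told apart.

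Rarb, a retinoic acid receptor whose own promoter carries the DR5 shown above, was never above 13 UMIs in a library and was not tested in any comparison with the main filter. At 3 h it had 7 UMIs, at 1.27, 3.31 and 3.48 CPM, against 1 UMI over the fresh libraries, a ratio of 6.99 (95% counting interval 0.897 to 315). Its highest level was at 1 week, with 4.23, 6.48 and 3.59 CPM from 36 UMIs, a ratio to the fresh libraries of 11.6 (95% counting interval 1.95 to 470). With a filter at 1 CPM it was tested and called at 1 week (log2 fold change 3.44, adjusted p = 0.00602) and at 2 weeks (2.46, adjusted p = 0.0642). It had 4 UMIs over the 5 dediHep libraries, 1 over the dediHep-SOs and none in aggregates, dediHep-BOs, CLiPs, FIPC-SOs or ISC-BOs. These counts say that Rarb was not detectable there at this depth.

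Genes that retinoic acid is known to induce were taken from a list of 14, of which 7 were tested in the time course. Of these 7, 1 fell and none rose at 3 h (background 6.91%), and 3 fell and 1 rose at 1 day (17.4%). At 2 days 4 fell and none rose (21.3%), and at 4 days 5 fell and 1 rose (23.8%). At 1 week 3 fell and 1 rose (25.9%), and at 2 weeks 3 fell and 1 rose (29.5%). Dhrs3, Cyp26a1 and Cyp26b1 are among the 7, so the Cyp26 values that follow are not separate from these counts. The breakdown enzymes Cyp26a1 and Cyp26b1, the only ones tested of their list of 4 and named after their values were seen, had log2 fold changes of -5.32 (adjusted p = 8.6e-05) and -3.66 (adjusted p = 0.00441) at 2 days. At 1 week they were -1.49 (adjusted p = 0.0938) and -1.78 (adjusted p = 0.108), so neither was called. At 2 weeks Cyp26a1 was again called lower (-2.90, adjusted p = 0.00452) and Cyp26b1 was at -1.91 (adjusted p = 0.0814). In dediHeps both were called lower, by -7.25 (adjusted p = 5.66e-05) and -6.81 (adjusted p = 2.97e-05). Cyp26a1 stood at 34.2 ± 28 CPM (SD, n = 3) in fresh hepatocytes, 0.776 ± 1.35 at 2 days 12.7 ± 2.44 at 1 week and 4.71 ± 3.09 at 2 weeks, and had 2 UMIs over the dediHeps. The difference between 2 days and 1 week was not tested. The stellate and fibroblast markers summed to 4.87 to 33.5 CPM at 2 days, 18.9 to 100.2 at 1 week and 48.2 to 209.9 at 2 weeks, and their part in these later values was not tested.

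Of 11 tested genes of a wider list for the oxidation of retinol, 9 were called lower at each time from 1 day to 2 weeks, a count that includes Rdh7 and Adh1. The background called in either direction was 17.4% at 1 day and 29.5% at 2 weeks. The log2 fold changes at 2 weeks were -9.68 for Adh4 (adjusted p = 9.68e-11) and -5.74 for Stra6l (adjusted p = 1.53e-09), the latter from the list of uptake and carrier genes. Hsd17b6 and Rdh16f2, neighbours of Rdh7, had no UMI at 2 weeks after 1106 ± 328.7 and 425.5 ± 102.1 CPM (SD, n = 3) in fresh cells. Dhrs9, also on the list of retinol oxidation, was called higher at 3 h (3.17, adjusted p = 0.000168). It was also called higher at 1, 2 and 4 days, but not at 1 or 2 weeks. For retinal oxidation, 4 of 6 fell at 2 weeks, with Aldh8a1 at -10.63 (adjusted p = 2.53e-11). Bco1, which cleaves carotenes to retinal, was called higher at every time from 1 day (4.34, adjusted p = 1.82e-07) to 2 weeks (2.37, adjusted p = 0.000184). Over all 42 tested retinoid genes the median log2 change at 2 weeks was -2.31, against 0.0371 over all genes tested.

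**Figure D3:**
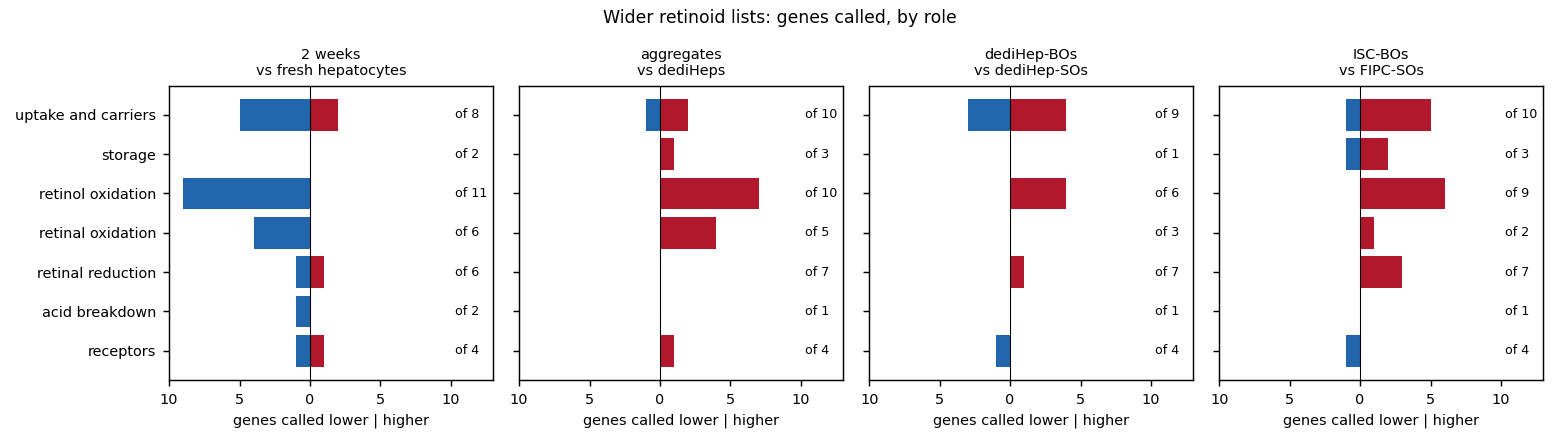
Number of genes of each retinoid role called lower (blue, left) or higher (red, right) in 4 comparisons, with the number tested at the right of each row. Retinol oxidation has 9 of 11 genes lower at 2 weeks of culture and 7 of 10 higher in aggregates than in dediHeps. Of all genes tested, 29.5% and 9.51% were called in either direction in these 2 comparisons.

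Against fresh hepatocytes, dediHeps had 3 of 5 tested genes lower (Rbp4, Rdh7 and Adh1), with a background of 25.7%. Over the wider list, 23 of 40 were lower and 2 higher. Aggregates against dediHeps had 2 of 7 higher (Rdh7 and Adh1) and 1 lower (Stra6), with a background of 9.51%. With the culture as a block 4 were called, as Rbp2 joined. Over the wider list 16 of 42 were higher and 1 was lower, with 7 of 10 for retinol oxidation and 4 of 5 for retinal oxidation. Examples were Rdh16f2 (8.35, adjusted p = 8.18e-05), Aldh1a7 (3.00, adjusted p = 0.00119) and the retinoid X receptor gene Rxra (2.53, adjusted p = 0.00121). Of 6 hepatocyte markers tested, 5 rose in the same comparison, and their part in these changes was not tested. Aggregates against fresh hepatocytes had 2 of 5 lower (Rdh7 and Adh1), with a background of 16.6%.

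dediHep-SOs against dediHeps had 2 of 7 higher (Stra6 and Aldh1a3) and 1 lower (Rdh7), with a background of 8.76%. Without dediHep-SO replicate 3 the count was 5, as Adh1 and Rbp2 were then called lower, and with the culture as a block Aldh1a3 was not called. Over the wider list 4 of 30 were higher and 5 lower. dediHep-SOs against FIPC-SOs had 4 of 6 higher (Stra6, Rbp4, Aldh1a1 and Dhrs3) and none lower, with a background of 8.91%. Without dediHep-SO replicate 3 Adh1 was called lower, and Rbp2, with 2 UMIs in dediHep-SOs, was tested and called lower with a filter at 1 CPM (-3.64, adjusted p = 0.0346). Over the wider list 7 of 28 were higher and 2 lower. Tgm2, a transglutaminase induced by retinoic acid (2.79, adjusted p = 0.000869), and Rdh10, a retinol oxidase (2.06, adjusted p = 0.0257), were among those called higher, and Stra6l (-2.51, adjusted p = 0.00544) and Lpl (-2.93, adjusted p = 0.0261) were the 2 called lower.

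dediHep-BOs against dediHep-SOs had 3 of 8 higher (Rbp2, Rdh7 and Adh1) and 2 lower (Stra6 and Rbp4), with a background of 11.3%. Over the wider list 9 of 32 were higher and 4 lower, among them Bco2 (3.36, adjusted p = 0.000378) and the receptor gene Rarg (-4.01, adjusted p = 0.000821). ISC-BOs against FIPC-SOs had 5 of 6 higher (Rbp2, Rdh7, Adh1, Aldh1a1 and Dhrs3) and none lower, with a background of 6.62%. The interaction between form and source was called for 3 of 8 (Rbp4, Aldh1a1 and Dhrs3), all with the dediHep-derived step the lower one, against a background of 9.45%. The 8 include Rdh7 and Stra6, for which the interaction has no usable estimate. For Rbp4 it was -3.92 ± 0.616 (SE, adjusted p = 0.00126). For Stra6, with 4 UMIs in FIPC-SOs and none in ISC-BOs, edgeR gave -6.80 ± 86.9 (adjusted p = 0.967) and DESeq2 -7.90 (adjusted p = 0.000106), and neither is a bound.

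dediHep-BOs against ISC-BOs had none of 6 called, with a background of 3.05%. An unadjusted p under 0.05 was reached by 4 of the 6, Rbp2, Rbp4, Adh1 and Dhrs3. Of all 11303 genes tested, 2558 reached it. DESeq2 also called none of the 6. The log2 differences ran from -1.48 ± 0.582 (SE) for Rbp2 to 1.23 ± 0.356 for Rbp4. Aldh1a3, not tested by the main filter, had 16 UMIs in dediHep-BOs and 2 in ISC-BOs, a 10.6-fold ratio (95% counting interval 2.49 to 94.8), and it was called when the filter was at 1 CPM. Among non-members Rdh1, in the row of genes beside Rdh7, was higher in dediHep-BOs (5.65, adjusted p = 0.00132). Bco1 was lower there (-2.81, adjusted p = 0.0422). ISC-BOs against fresh hepatocytes had 1 of 6 higher (Rbp2) and 4 lower (Rbp4, Rdh7, Aldh1a1 and Dhrs3), with a background of 28.1%.

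**Figure D4:**
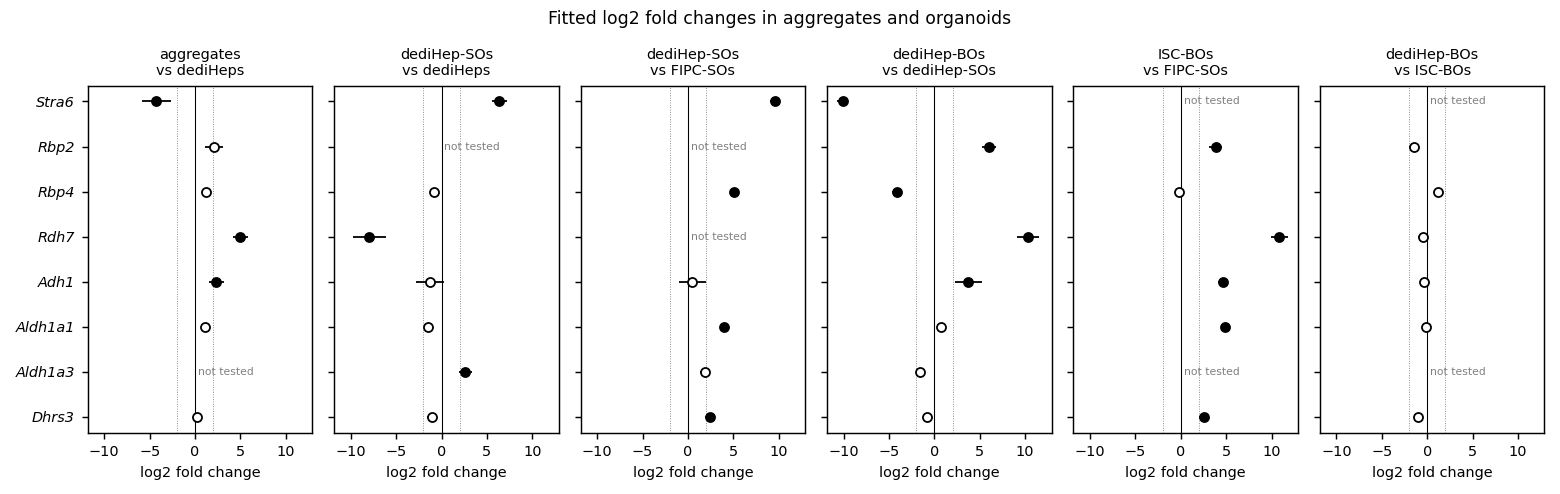
Fitted log2 fold changes with SE bars for 8 genes in 6 comparisons of aggregates and organoids. Filled points were called, dotted lines mark a log2 fold change of 2 in each direction, and values against a group at 0, as for Rdh7, depend on the fit and are no bound. In the panel of dediHep-BOs against ISC-BOs no point is filled.

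CLiPs against dediHeps had 2 of 6 lower (Adh1 and Dhrs3), with a background of 3.04%. Adh1 was 0, 0.21 and 0.905 CPM in CLiPs, from 3 UMIs, a 660-fold lower level than in dediHeps (95% counting interval 226 to 3200, adjusted p = 0.015). Dhrs3 was 13.3, 13.45 and 40.7 CPM (log2 fold change -2.45 ± 0.577, SE, adjusted p = 0.0559). The Dhrs3 call was lost without CLiP replicate 1 (adjusted p = 0.242) or 2 (adjusted p = 0.108). CLiPs against fresh hepatocytes had 4 of 5 lower (Rbp4, Rdh7, Adh1 and Dhrs3), with a background of 24.5%. CLiP replicate 3 stood apart, with 1417 CPM of Rbp4 against 428.5 and 399.7 in the others. Without it, Rbp4 was -3.26 and Rdh7 -10.16, compared with -2.34 and -6.30 with it, and Rbp4 was lost without CLiP replicate 1 (-2.01, adjusted p = 0.106). Hepatocyte markers summed to 1204 to 6300 CPM over the CLiP libraries, and their part was not tested. Stra6l was higher in CLiPs than in dediHeps (5.00, adjusted p = 0.0149).

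Verteporfin left 0 of the 4 tested genes past both thresholds, with a background of 0.269%. The 4 were Rbp4, Adh1, Aldh1a1 and Dhrs3, and DESeq2 likewise called none. An unadjusted p under 0.05 was reached by Adh1 and Dhrs3, and by 961 of all 10400 genes tested. Adh1 was 621 and 635.6 CPM with verteporfin and 234.4 and 227.1 CPM with DMSO, a log2 fold change of 1.48 ± 0.213 (SE, adjusted p = 0.0308) that was short of the fold required. The untreated 1-week libraries held 56, 38.9 and 42.7 CPM of Adh1, below both DMSO libraries. That difference between untreated and DMSO cultures was not tested. Dhrs3 was 49 and 52 CPM against 36.9 and 25.2 CPM (0.74 ± 0.318, adjusted p = 0.53). Whether the groups overlapped is not read as a result here. With 2 libraries each, the share of all genes without overlap was not counted.

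Over the 16 condition means of log2(CPM + 1), the genes most like each member are given as a description, since conditions share cells and depth. Stra6 was most like Ltb, Zic2 and Krt6a (Pearson r 0.962 to 0.973). Rbp2 was most like Slc39a5, Mep1a and Cyp2c65 (0.961 to 0.967). Rbp4 was most like C3, Hspb8 and Trf (0.974 to 0.978), and Rdh7 was most like Cyp3a11, Slc2a2 and Slc23a1 (0.974 to 0.988). Adh1 was most like Papss2 (0.915), Aldh1a1 like Selenop (0.893), Dhrs3 like Slc25a11 (0.886) and Aldh1a3 like Fam89a (0.767). Among the members themselves, the highest r was 0.682, between Rbp4 and Aldh1a1, followed by 0.642 between Rdh7 and Adh1, and the lowest was -0.625, between Rbp2 and Rarb. When conditions were ordered by mean level, most neighbours overlapped in range. Of 15 neighbouring pairs, 6 did not overlap for Adh1, 4 for Rbp4, 2 each for Rdh7, Aldh1a1 and Aldh1a3, and 1 each for Stra6, Rbp2, Dhrs3 and Rarb. The same count over the 14710 genes that passed the filter on low counts in all 49 libraries had a median of 0 and an upper quartile of 1.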

How the data were processed

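CEL-Seq2 libraries were sequenced from the 3′ end of transcripts, and the authors deposited a table of UMI counts per Ensembl gene, unnormalized, made with bcl2fastq 2.20, Bowtie2 2.3.1 and HTSeq 0.6.0 on GRCm38 per the submitters' processing notes. Of 46078 identifiers 45143 had a symbol, and all columns were assigned to a sample. The members and gene lists were chosen with earlier results of these data known. Counts were tested in R 4.3.3 with edgeR 4.0.16 (TMM, filterByExpr with a minimum count of 10, quasi-likelihood F-test, Benjamini-Hochberg over all genes tested). The 7 groups of the time course shared 1 fit, 12 comparisons had a fit of their 2 groups, and the interaction was (dediHep-BO minus dediHep-SO) minus (ISC-BO minus FIPC-SO). In that interaction form cannot be told apart from donor age, Cdx2 and medium. Called means an adjusted p below 0.1 and a log2 fold change over 2 in size. The procedure was tested on simulated data. Folds against a group at 0 take 3 counts over the group, and intervals (95%) cover counting error only.

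Named were the 9 members, up to 6 called genes of the wider retinoid list per comparison by smallest p, and the 3 genes most like each member. Of the genes this rule gave, 1 is not reported here. Any other gene named with values, such as a copy or neighbour of a member, was picked after its values were seen, apart from the marker and reference genes. Among 54 pairs of replicates none agreed within sampling noise (chi-square per degree of freedom 5.62 to 68). Culture codes in the labels pair aggregates with dediHeps: the 3 pairs deviated together (r 0.19 to 0.357, other pairs -0.296 to 0.11). The same codes pair dediHep-SOs with dediHeps, where the 3 pairs did not deviate together (r -0.499 to 0.0435). Alternatives were DESeq2 1.42.0, RLE scaling, a UMI correction, other filters, 1 fit of all 49 libraries, blocks and leaving out each library.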

Additional observations from a re-analysis of the deposited data

Results flagged for a closer look

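The change from spherical to budding form differed between dediHep-derived and intestinal organoids for 3 genes, by the interaction term in edgeR. It was -3.92 for Rbp4 (adjusted p = 0.00126), -4.13 for Aldh1a1 (adjusted p = 0.000527) and -3.45 for Dhrs3 (adjusted p = 0.0107). In the 4 ISC-BO libraries, Adh1 in replicate 1 stood at 1948 CPM, far from the other libraries at 1481 to 1491 CPM, the gap being 0.979 of the range. Chance sets 1 sample apart in about 1 of 20 groups.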

How the results depend on the processing

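No call of a member in the main run changed direction under any alternative run. Values not called in the main run are outside this statement. Among them, Adh1 in dediHep-SOs against FIPC-SOs went from 0.50 to -7.20 without dediHep-SO replicate 3. DESeq2, RLE scaling and the UMI correction left all 19 counts of members called within 1.5 times. The count for dediHeps against fresh hepatocytes was 5 with a filter at 1 CPM, and that for dediHep-BOs against ISC-BOs was 1, Aldh1a3, with all 49 libraries in 1 fit, with a filter at 1 CPM and with no filter. With the replicate block, the count for CLiPs against dediHeps was 1, as Dhrs3 was lost (adjusted p = 0.146), and Aldh1a3 was lost for dediHep-SOs against dediHeps (adjusted p = 0.214). The block by replicate number changed no other call except that Aldh1a1 in dediHeps against fresh hepatocytes became -2.11 (adjusted p = 0.00301). Replicate numbers follow the culture codes only for aggregate replicates 1 and 2 and dediHep-SO replicate 1, and the labels do not say that other numbers mark a shared culture. Leaving out 1 library at a time, the counts ran from 3 to 4 at 4 days, 1 to 4 for aggregates against dediHeps, 1 to 3 for aggregates against fresh hepatocytes, 2 to 5 for dediHep-SOs against dediHeps and 1 to 2 for CLiPs against dediHeps. Of 394 single calls refitted so, 31 were lost. Rarb, Aldh1a3, Rbp2 and Stra6 rest on few UMIs in many conditions, and the UMI ceiling limits Rbp4, Adh1 and Aldh1a1. The causes of these changes were not tested.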
